A study of Mus musculus with 15 samples.

Results

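The genes described here encode digestive enzymes and a cofactor that the acinar cells of the exocrine pancreas secrete, and they were followed across mouse colon with and without mutations of Apc and Olfm4. The 10 genes were chosen by name, starting from Pnliprp1, which was picked because it stood among the largest rises in tumour, so its values are given as a description with no test. Of the 10, 9 had a probe set (a group of short DNA probes read as 1 value) annotated with exactly 1 gene symbol, among 18193 genes measured in this way. Pnlip, the classical pancreatic lipase, had none and was not measured here. The 9 genes had 14 such probe sets, and for each gene the brightest over all arrays was taken, with the other 5 given beside it.

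RNA was taken from the colon of male littermates on a C57BL/6 and 129 hybrid background, aged 3 months, and hybridised to 15 Affymetrix Mouse430_2 arrays, 3 in each of 5 groups. Wild type colon was APC+/+/Olfm4+/+, APC mutant colon was APC+/-/OLFM4(+/+), and Olfm4 mutant colon was APC+/+/Olfm4-/-. Mice of genotype APC+/-/Olfm4-/- (double mutant) gave both adjacent normal tissue and tumor tissue, here called adjacent and tumour. All groups had at least 1 intact Apc allele by label, and every tumour array analysed here came from mice that lack Olfm4, so no tumour with intact Olfm4 was compared. The series' design text speaks of 3 mice per category, but the titles of the double mutant samples carry only 2 animal numbers: replicate 1 came from one animal, and replicates 2 and 3 from the other, in both tissues. The number of Olfm4 mutant replicate 3 resembles those of its group's other mice, and whether it is a further animal is not settled by the labels. The p-values then rest on the spread between these samples alone, and some of it may be technical.

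Pancreatic acinar cells make lipases, proteases and other hydrolases, the proteases as inactive precursors, and release them into the duodenum. Pnlip cleaves dietary fat at the surface of lipid droplets with the help of colipase (Clps), which anchors it there in the presence of bile salts. Pnliprp1 and Pnliprp2 are its closest relatives. Pnliprp2 acts on galactolipids, phospholipids and triglycerides, while little lipase activity is known for Pnliprp1. Cel is a lipase activated by bile salts, Prss2, Ctrb1 and Cela1 are the serine proteases trypsin, chymotrypsin and elastase, and Cpa1 and Cpb1 are carboxypeptidases that trim the products.

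All levels below are log2 values made by the authors with RMA, so a difference of 1 is a 2-fold change. Levels of different probe sets are not set against each other, because probes differ in their brightness. A gene was called higher or lower at an adjusted p below 0.05, from limma with Benjamini-Hochberg adjustment over all 18193 genes. The comparisons share arrays, so they are not independent of each other. The only Olfm4 probe set lay between 2.97 and 3.32 on every array, near the lowest value in the table (2.56), and so gives no check of the Olfm4 genotype. The brightest Apc probe set had a mean of 10.18 ± 0.133 (SD, n = 3) in wild type and 10.61 ± 0.181 in APC mutant colon, and 3 further Apc probe sets did not all move with it: one had means of 8.43 in wild type, 8.37 in APC mutant and 6.21 in tumour, where the brightest had 11.19. The labels do not say which part of Apc was changed, so these values check nothing either. The mean over 11 measured markers of colonic epithelium lay between 12.96 and 13.19 on the wild type arrays and between 11.01 and 11.69 on the tumour arrays. Single markers did not all stay high in tumour: 9 were called lower than in wild type and 0 higher, where 20.1% of all genes were called lower. Cdx1 and Slc26a3 had tumour means of 8.55 and 9.41.

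Some arrays stand apart and bear on the results. On adjacent replicate 3, the 50 genes with the largest called rise in tumour over wild type (members left out) lay at a median of 52.2% of the way from the wild type to the tumour mean, against 12.9% and 8.82% on adjacent replicates 1 and 2. For the 50 genes with the largest called fall it lay at 21.5% of the way, against 27.6% and 26.7%. APC mutant replicate 1 was the array with the highest value for 7 of the 9 measured members. Bacterial RNAs added to each sample as a control of labelling gave a difference between 3′ and 5′ probe sets of 5.01 ± 0.255 in tumour and 4.10 ± 0.3 in adjacent tissue, against 1.99 ± 0.0831 on the wild type, 2.16 ± 0.203 on the APC mutant and 2.64 ± 0.525 on the Olfm4 mutant arrays (mean ± SD, n = 3). The array numbers run by group, so this difference in labelling and the groups cannot be told apart. Several results that rest on these arrays are given with and without them.

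The lipase relatives Pnliprp1 and Pnliprp2 had low to moderate levels in wild type, APC mutant and Olfm4 mutant colon, higher levels in the adjacent tissue and their highest levels in tumour. No other measured member was called higher in tumour against wild type. Clps and Cela1 were bright in all colon and fell in tumour against wild type. Cel, Cpa1, Cpb1, Ctrb1 and Prss2 were dim on nearly every array, and none of them was called in tumour against wild type.

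**Figure D1:**
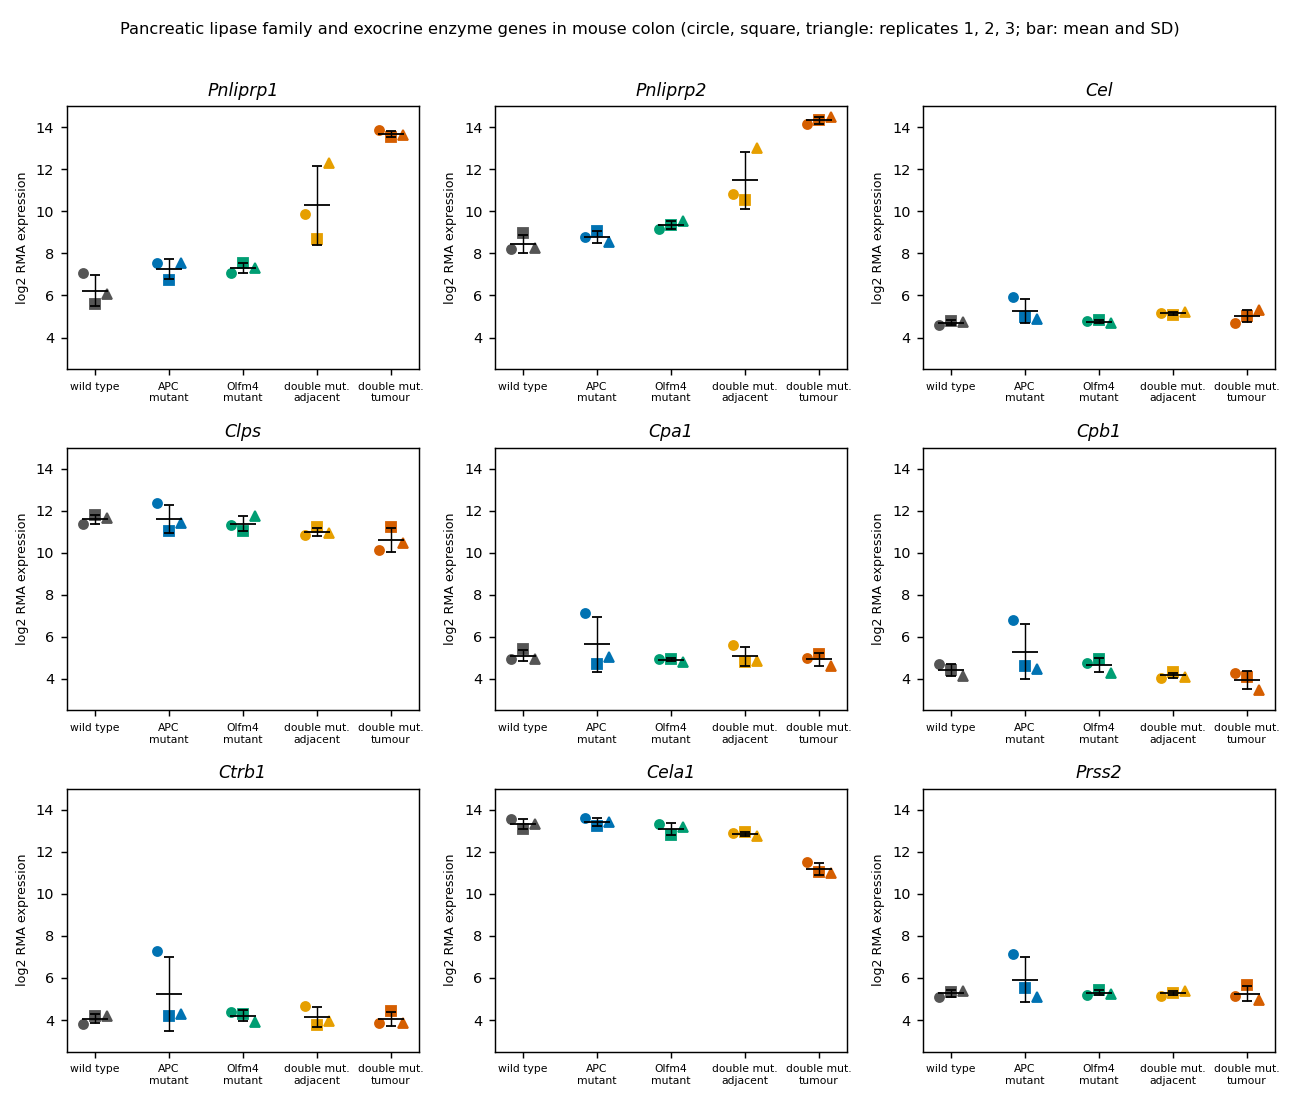
Log2 RMA expression of the 9 measured members by group on a common axis; symbols are single arrays (replicates 1, 2 and 3) and bars the mean and SD of 3 arrays. Pnliprp1 and Pnliprp2 reach 13.68 and 14.35 in tumour, Cela1 drops to 11.18, and APC mutant replicate 1 lies above the other arrays for the 5 dim enzymes.

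The 2 lipase relatives are neighbours on chromosome 19, with Pnliprp2 the next gene after Pnliprp1. Their promoter sequences are shown because the genes moved together. That of Cela1, another gene of pancreatic acinar cells, which moved the other way, is shown for comparison. Which cells of the colon express these genes was not tested. Sequences are the 250 bases before the gene start from RefSeq (GRCm38.p6), which held 9 of the 10 members, Clps not among them. Capitals mark matches on either strand to TATAAA, to CANNTG (the E-box, bound among others by the acinar factor Ptf1a with its partner), to TGGGAA (the other part of the site that Ptf1a with Rbpj or Rbpjl binds), and to CTTTGAA, to its variant CTTTGAT, to CTTTGTA and to its variant CTTTGTT (forms of the site of TCF/LEF factors, which carry Wnt signals). Pnliprp1 lies at chr19:58728637-58728886 (+ strand), Pnliprp2 at chr19:58759473-58759722 (+ strand) and Cela1 at chr15:100687921-100688170 (- strand).
Pnliprp1: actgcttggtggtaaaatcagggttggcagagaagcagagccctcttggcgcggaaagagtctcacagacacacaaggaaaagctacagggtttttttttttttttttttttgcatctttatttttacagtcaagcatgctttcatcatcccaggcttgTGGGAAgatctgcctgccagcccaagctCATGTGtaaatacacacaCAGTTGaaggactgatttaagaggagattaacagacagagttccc
Pnliprp2: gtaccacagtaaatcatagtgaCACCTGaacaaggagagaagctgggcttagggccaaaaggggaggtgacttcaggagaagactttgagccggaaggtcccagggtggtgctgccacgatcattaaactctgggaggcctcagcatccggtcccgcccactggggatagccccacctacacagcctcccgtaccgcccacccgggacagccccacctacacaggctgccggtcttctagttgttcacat
Cela1: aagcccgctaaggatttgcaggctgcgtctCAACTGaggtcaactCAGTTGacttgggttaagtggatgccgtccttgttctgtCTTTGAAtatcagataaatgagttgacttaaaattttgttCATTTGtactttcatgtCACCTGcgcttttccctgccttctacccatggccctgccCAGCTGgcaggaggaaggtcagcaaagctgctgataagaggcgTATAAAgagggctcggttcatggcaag

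The window of Pnliprp1 held 2 E-boxes, at 63 to 58 and 45 to 40 bases before the start, and 1 TGGGAA at 91 to 86 bases. Pnliprp2 held 1 E-box, at 228 to 223 bases, and none of the other motifs. Cela1 held TATAAA at 27 to 22 bases, 5 E-boxes and 1 CTTTGAA at 166 to 160 bases. GC content was 43.6% for Pnliprp1, 58.4% for Pnliprp2 and 48% for Cela1. Among 32851 RefSeq promoters of the same length, 66.2% held an E-box, 21.6% TGGGAA, 12.4% TATAAA and 14.8% a TCF/LEF form, so all of these letters are common. A match is a description of the sequence and not evidence of binding.

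Pnliprp1 stood at 7.05, 5.60 and 6.05 on the wild type arrays, at 7.53, 6.72 and 7.55 in APC mutant colon and at 7.07, 7.53 and 7.33 in Olfm4 mutant colon. Adjacent tissue gave 9.86, 8.67 and 12.33, and tumour gave 13.85, 13.54 and 13.66. The tumour arrays lay within a narrow band and above all others, the adjacent arrays were spread widely, and the 3 other groups overlapped. From highest to lowest the group means were 13.68 ± 0.159 (SD, n = 3) in tumour, 10.28 ± 1.86 in adjacent tissue, 7.31 ± 0.234 in Olfm4 mutant, 7.26 ± 0.474 in APC mutant and 6.24 ± 0.743 in wild type colon. The tumour mean was 7.45 (SE 0.68) above wild type, a 175-fold difference, and 3.40 above adjacent tissue, a 10.5-fold difference. It was 6.42 above APC mutant and 6.37 above Olfm4 mutant colon. The adjacent mean was 4.05 above wild type, or 16.6-fold, and 3.03 above it without adjacent replicate 3. These values chose the gene and carry no test.

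Pnliprp2, the lipase that also cleaves galactolipids, stood at 8.20, 8.95 and 8.24 in wild type, at 8.76, 9.08 and 8.54 in APC mutant and at 9.18, 9.38 and 9.55 in Olfm4 mutant colon. Adjacent tissue gave 10.84, 10.56 and 13.03, and tumour 14.18, 14.36 and 14.50. Each tumour array lay above each adjacent array, each adjacent array above each Olfm4 mutant array, and each Olfm4 mutant array above each APC mutant array, while APC mutant and wild type colon overlapped. Pnliprp2 rose 59.0-fold in tumour over wild type (log2 5.88, SE 0.48, limma adjusted p = 1.1e-06), 47.0-fold over APC mutant (adjusted p = 1.98e-06) and 31.5-fold over Olfm4 mutant colon (adjusted p = 5.6e-06). Against the adjacent tissue of the same 2 animals it rose 7.32-fold (log2 2.87, adjusted p = 0.000626). With the 3′ to 5′ difference of the added RNAs as a covariate, which nearly follows the groups, none of these 4 calls held: the difference was 3.38 (SE 1.81) from wild type, with an adjusted p of 0.748, and 2.12 from adjacent tissue, with an adjusted p of 0.0739. Against APC mutant and Olfm4 mutant colon the adjusted p was then 0.745 and 0.515. Of all 18193 genes, this covariate left 1 called against wild type, 1 against APC mutant and 79 against Olfm4 mutant colon. The losses against these groups are thus shared by nearly all genes. Against adjacent tissue 2144 genes were still called.

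In the adjacent tissue Pnliprp2 was 8.07-fold above wild type (log2 3.01, limma adjusted p = 0.00103) and 6.42-fold above APC mutant colon (adjusted p = 0.0039). With that covariate these differences were 1.26 and 1.08, both with an adjusted p of 1, and 0 of all 18193 genes were called in either comparison. Against Olfm4 mutant colon, which shares the loss of Olfm4, the difference of 2.11 did not pass (adjusted p = 0.0716). Only 8 of the 18193 genes passed in that comparison. Between Olfm4 mutant and wild type colon Pnliprp2 differed by 0.90 (adjusted p = 0.268), and between APC mutant and wild type by 0.33 (adjusted p = 0.911), neither of which passed. With APC mutant replicate 1 and adjacent replicate 3 both left out, which changes the estimate of the spread, the Olfm4 mutant difference of 0.90 passed (adjusted p = 0.0348). The adjacent rise depended in size on replicate 3: without that array it was 2.24 over wild type (adjusted p = 0.00173) and 1.91 over APC mutant colon (adjusted p = 0.00596), and the tumour rise over adjacent tissue was then 3.65. The adjacent difference from Olfm4 mutant colon was then 1.33 (adjusted p = 0.132). Whether the adjacent rise exceeds the sum of the single mutants' changes was tested as an interaction, which gave 1.78 for Pnliprp2 and did not pass (adjusted p = 0.444).

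The main probe set of Pnliprp2 carries the suffix of probe sets that may bind other transcripts. The second one, without that suffix, had means of 14.20 in tumour, 11.42 in adjacent tissue, 9.12 in Olfm4 mutant, 8.82 in APC mutant and 8.60 in wild type colon. It rose by 5.60 in tumour over wild type (limma adjusted p = 1.22e-06 over all probe sets) and by 2.82 in adjacent tissue over wild type (adjusted p = 0.000834). Against Olfm4 mutant colon its adjacent difference of 2.30 passed (adjusted p = 0.0493), unlike that of the main probe set. That call is given with all arrays only. The second probe set read 12.82 on adjacent replicate 3, against 10.98 and 10.44 on replicates 1 and 2. Binding of Pnliprp1 transcripts to Pnliprp2 probes, or the reverse, was not tested.

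Both lipase relatives also split the adjacent arrays in the same way. Placed between the wild type mean (0%) and the tumour mean (100%), Pnliprp1 lay at 48.6%, 32.7% and 81.8% on adjacent replicates 1, 2 and 3, and Pnliprp2 at 40.4%, 35.6% and 77.6%. Replicate 3 was thus nearest to tumour for both, as it was for the 50 most raised genes. On replicates 1 and 2 the lipase relatives lay further along than the median of those genes, which stood at 12.9% and 8.82%. That median does not show the spread of the genes, and Pnliprp1 was chosen for its rise. The lead was not particular to the lipase relatives. Ptpro, described below, read 10.82 and 10.78 on these arrays, between means of 9.60 in wild type and 12.32 in tumour. Wif1 was less far along, at 6.15 and 5.95 between means of 4.17 and 11.97. Sox2, a transcription factor of the stomach and oesophagus, was at 9.59 on replicate 3 against 5.73 and 5.44 on replicates 1 and 2. The part that tumour cells in the adjacent tissue have in these values was not tested, and in bulk tissue a change in the share of cells and a change in RNA per cell cannot be told apart.

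**Figure D2:**
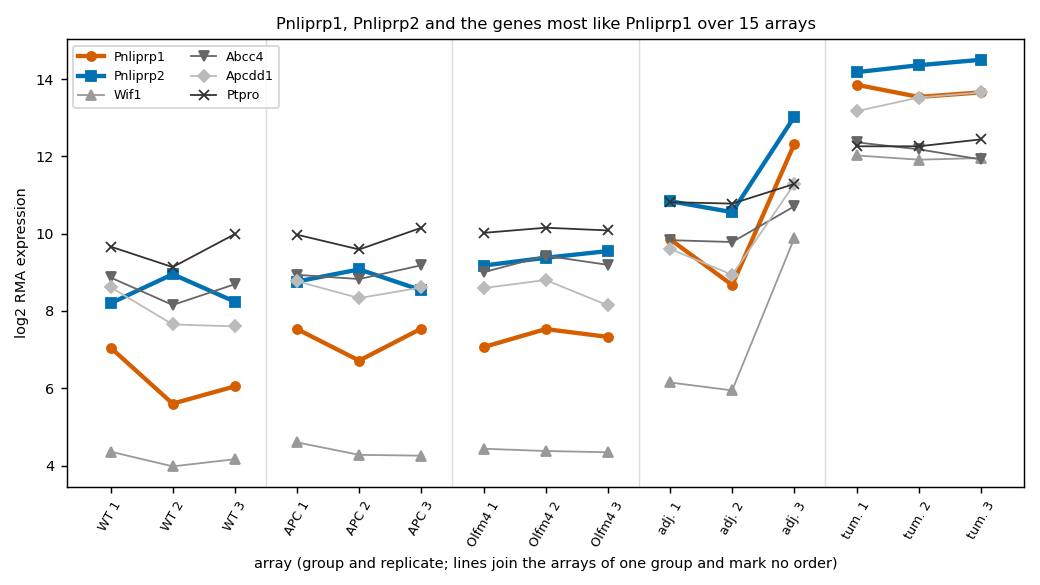
Log2 RMA expression of Pnliprp1, Pnliprp2 and the genes most like Pnliprp1 on each of the 15 arrays; lines join arrays of 1 group and mark no order, and levels of different genes are not compared. All 6 genes are highest on the 3 tumour arrays, and adjacent replicate 3 is the highest adjacent array for each.

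Across all 15 arrays Pnliprp2 had the fourth highest Pearson correlation with Pnliprp1 among 18192 other genes, r = 0.976. The genes ahead of it were Wif1, a secreted protein that binds Wnt ligands (r = 0.982), Abcc4, a membrane pump that exports cyclic nucleotides (r = 0.981), and Apcdd1, a membrane glycoprotein that restrains Wnt signalling (r = 0.979). Next came Ptpro, a receptor-type tyrosine phosphatase (r = 0.975). Wif1 went from 4.17 ± 0.19 in wild type to 7.33 ± 2.22 in adjacent and 11.97 ± 0.0554 in tumour (mean ± SD, n = 3), and Apcdd1 from 7.96 ± 0.572 to 9.94 ± 1.21 and 13.45 ± 0.25. These correlations describe arrays that share groups, a tissue and a normalization. The other members ranked far lower: Cel had r = 0.249, Cpa1 -0.157, Prss2 -0.163, Ctrb1 -0.177, Cpb1 -0.429, Clps -0.709 and Cela1 -0.886.

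Other genes beside the lipase cluster on chromosome 19 did not all move with it. They are given for tumour against wild type, where 49.4% of all genes were called in either direction. In the gene order of RefSeq, Pnlip lies 3 places before Pnliprp1 and was not measured. The noncoding RNA gene 1810007D17Rik, just before Pnlip, rose by 1.55 in tumour over wild type (limma adjusted p = 1.87e-06) from a low mean of 3.81 to 5.35. The noncoding 1810018F18Rik, just before Pnliprp1, rose by 0.38 (adjusted p = 0.0303), also from a low mean, of 3.51 to 3.89. Ccdc172, further out on that side, differed by -0.01 (adjusted p = 0.94). On the other side 1700019N19Rik differed by 0.25 (adjusted p = 0.221), the chaperone gene Hspa12a fell by 0.82 (adjusted p = 0.0164), the enolase gene Eno4 rose by 1.31 (adjusted p = 0.000153) and Shtn1 differed by 0.14 (adjusted p = 0.311).

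Clps, the cofactor of pancreatic lipase, was bright in all colon groups and lower in tumour. The main probe set read 11.35, 11.79 and 11.64 in wild type, 12.35, 11.04 and 11.39 in APC mutant and 11.31, 11.05 and 11.76 in Olfm4 mutant colon. Adjacent tissue gave 10.83, 11.21 and 10.96, and tumour 10.11, 11.21 and 10.46. The tumour arrays lay below all wild type arrays but overlapped the other groups, tumour replicate 2 being level with adjacent replicate 2. Clps fell 2.00-fold in tumour against wild type (SE 0.33 on the log2 scale, limma adjusted p = 0.0227) and as much against APC mutant colon (adjusted p = 0.0238). The differences of -0.78 against Olfm4 mutant (adjusted p = 0.0777) and -0.41 against adjacent tissue (adjusted p = 0.409) did not pass. Nor did that of -0.59 between adjacent tissue and wild type (adjusted p = 0.205).

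The second Clps probe set moved further, with means of 8.58 in tumour, 9.39 in adjacent tissue, 10.09 in Olfm4 mutant, 10.69 in APC mutant and 10.86 in wild type colon. It fell by 2.28 in tumour against wild type (limma adjusted p = 0.000298 over all probe sets), by 1.51 against Olfm4 mutant colon (adjusted p = 0.00772) and by 1.48 in adjacent tissue against wild type (adjusted p = 0.0119). The probe sets thus agree in direction and differ in size. On the main probe set the fall against wild type was lost when any of 4 arrays was left out: -0.90 (adjusted p = 0.0695) and -0.98 (0.054) without wild type replicates 2 and 3, and -0.76 (0.0969) and -0.93 (0.0678) without tumour replicates 1 and 3. The fall against APC mutant colon was lost without APC mutant replicate 1 (-0.63, adjusted p = 0.112), tumour replicate 1 (-0.76, adjusted p = 0.099) or tumour replicate 3 (-0.93, adjusted p = 0.0692). With the 3′ to 5′ covariate the differences turned to 0.21 (SE 1.30) from wild type and 0.14 from APC mutant colon, both with an adjusted p of 0.994. Only 1 of all 18193 genes was then called in each of these comparisons.

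Cela1, a pancreatic-type elastase, was bright in all colon groups and fell in tumour against each of them. It read 13.55, 13.10 and 13.32 in wild type, 13.59, 13.24 and 13.43 in APC mutant, 13.31, 12.79 and 13.16 in Olfm4 mutant and 12.88, 12.95 and 12.74 in adjacent tissue. Tumour gave 11.50, 11.05 and 10.9965, below every other array. Cela1 fell 4.41-fold in tumour against wild type (log2 -2.14, SE 0.18, limma adjusted p = 1.18e-06), and by 2.24 against APC mutant (adjusted p = 1.04e-06) and 1.91 against Olfm4 mutant colon (adjusted p = 4.15e-06). Against adjacent tissue it fell 3.19-fold (adjusted p = 1.93e-05). With the 3′ to 5′ covariate the fall against adjacent tissue still passed (-1.33, adjusted p = 0.00476), while those against wild type (-0.99, SE 0.63, adjusted p = 0.828), APC mutant (adjusted p = 0.72) and Olfm4 mutant colon (adjusted p = 0.54) did not. Of all 18193 genes, 2144 were then called against adjacent tissue, but only 1 against wild type, 1 against APC mutant and 79 against Olfm4 mutant colon.

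The adjacent arrays of Cela1 lay below all wild type and APC mutant arrays by a small margin. The difference of -0.47 from wild type did not pass (limma adjusted p = 0.0662), and that of -0.56 from APC mutant colon passed narrowly (adjusted p = 0.0443). The latter call was lost whichever of the 6 arrays compared was left out, with adjusted p between 0.054 and 0.147. Against Olfm4 mutant colon the difference was -0.23 (adjusted p = 0.552). Adjacent replicate 3, which was nearest to tumour for the lipase relatives, lay at 27.1% of the way for Cela1, against 20.8% and 17.5% on replicates 1 and 2.

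The other serine proteases and the carboxypeptidases, with Cel, were dim in all groups. The mean over Cel, Cpa1, Cpb1, Ctrb1 and Prss2 lay between 4.44 and 4.93 on 14 arrays and at 6.85 on APC mutant replicate 1. Cel had means of 4.70 in wild type and 5.02 in tumour (limma adjusted p = 0.271), and Cpa1 of 5.09 and 4.94 (adjusted p = 0.813). Ctrb1 had means of 4.07 and 4.04 (adjusted p = 0.98), Prss2 of 5.27 and 5.25 (adjusted p = 0.968), and Cpb1 of 4.42 and 3.94 (adjusted p = 0.432). Values this low on an array without detection calls cannot separate low expression from none. Cpb1 was called lower in tumour than in APC mutant colon (log2 -1.35, adjusted p = 0.0337), but without APC mutant replicate 1 the difference was -0.59 (adjusted p = 0.0858). The call was also lost with the animal as a random block (-1.33, adjusted p = 0.0508) and with arrays of one animal averaged (-1.26, adjusted p = 0.1).

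**Figure D3:**
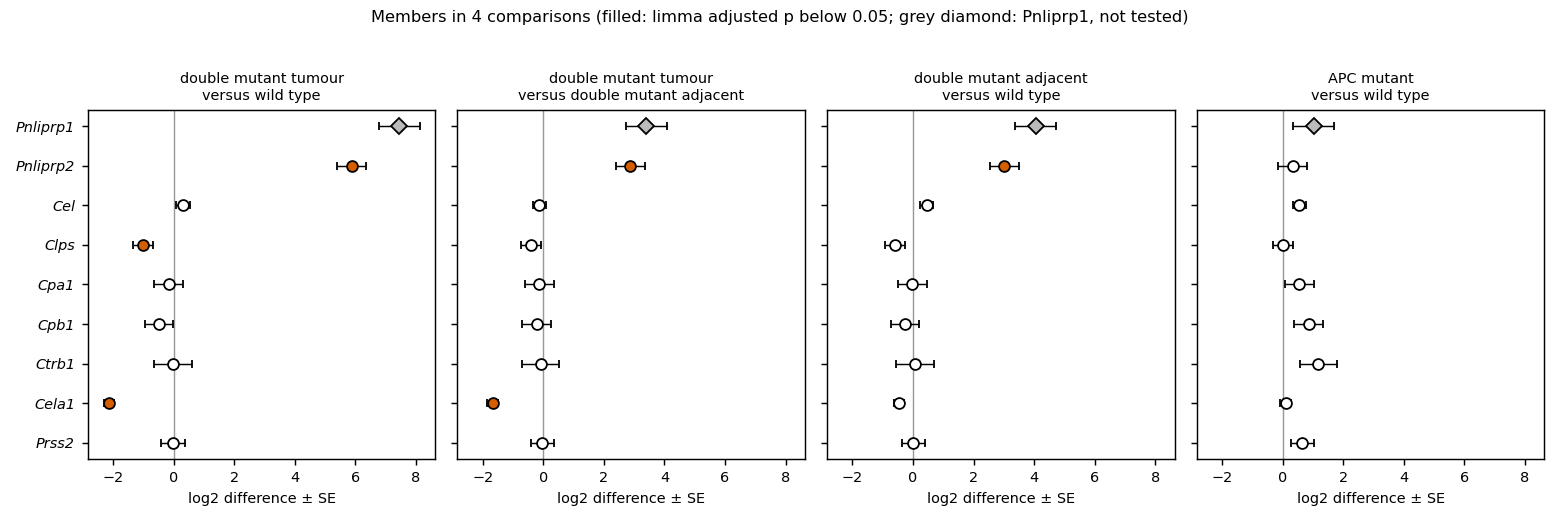
Log2 difference of each member, with its SE, in 4 comparisons; filled circles passed an adjusted p of 0.05 in limma, and grey diamonds are Pnliprp1, which was not tested. Pnliprp2 lies to the right in the 3 comparisons of double mutant tissue, Clps and Cela1 to the left in tumour against wild type, and no member passed in APC mutant against wild type.

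Of the 8 members tested, 1 (Pnliprp2) was called higher and 2 (Clps, Cela1) lower in tumour against wild type, 3 in all, where 49.4% of all genes were called, 29.3% higher and 20.1% lower. In tumour against APC mutant colon the count was 1 higher and 3 lower, where 27.9% of all genes were called higher and 19.5% lower, 47.4% in all. In tumour against Olfm4 mutant colon it was 1 higher and 1 lower, with 21.1% of all genes higher and 18.6% lower, 39.8% in all. Tumour against adjacent tissue gave 1 higher and 1 lower, with 14.3% of all genes higher and 13.8% lower, 28.1% in all. Adjacent tissue against wild type gave 1 higher and 0 lower, with 17.7% and 10.1% of all genes, 27.8% in all. Adjacent tissue against APC mutant colon gave 1 higher and 1 lower, with 9.88% and 7.45% of all genes, 17.3% in all. Against these backgrounds the members were called no more often than genes at large in tumour against wild type. Their median difference there was -0.09, against 0.11 over all genes.

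Between adjacent tissue and Olfm4 mutant colon 0 of the 8 members passed in limma, with 1 at an unadjusted p under 0.05, and 0.044% of all genes passed, 0.0385% higher and 0.0055% lower. For Olfm4 mutant against wild type colon 0 members passed, with 0 at an unadjusted p under 0.05 and 7.92% of all genes called, 5.42% higher and 2.5% lower. For APC mutant against wild type 0 members passed, with 1 (Cel) at an unadjusted p under 0.05, and 0% of all genes were called. With the 3′ to 5′ covariate the count in tumour against wild type was 0, where only 1 of all 18193 genes was called. The untested difference of Pnliprp1 was then 3.89 (SE 2.55).

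On APC mutant replicate 1 the dim enzymes were raised together. Ctrb1 read 7.27 there and between 3.76 and 4.67 on the other 14 arrays. Cpb1 read 6.80 against 3.47 to 4.94, Cpa1 7.15 against 4.60 to 5.58, Prss2 7.13 against 4.97 to 5.64, and Cel 5.91 against 4.58 to 5.32. Clps was also highest on that array, at 12.35 against 10.11 to 11.79. Cela1 was highest there as well, at 13.59, but only 0.05 above the next array. The other 3 Prss2 probe sets were high on it too, at 7.89, 8.62 and 7.11, although trypsins are a family of near-identical genes whose probes may not separate them.

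The lipase relatives did not stand out there from the other APC mutant arrays. Pnliprp1 read 7.53 on APC mutant replicate 1, and 6.72 and 7.55 on replicates 2 and 3 of that group. That is above the wild type arrays, which ran from 5.60 to 7.05. Pnliprp2 read 8.76 on APC mutant replicate 1, and 9.08 and 8.54 on replicates 2 and 3, with wild type arrays from 8.20 to 8.95. Among all genes, 1154 (6.34%) had their highest value on that array, and among the 26 measured members and other acinar products 11 did. Only 8 genes exceeded their next highest array by over 1 there, and 6 of them stood on these lists: Ctrb1, Cpb1, Cpa1, Cela2a, Prss2 and Ctrl. The other genes, 2210010C04Rik and Dock3, were not on the lists. The lists hold chosen symbols only, so absence from them does not mean that a gene is no acinar product. These genes were singled out after their values were seen. Ptf1a, the factor that defines acinar cells, read 4.77 on that array and between 4.20 and 4.97 on the others. These values lie near the low end of the table on every array, and so give no check of acinar cells. The labels say nothing of how the tissue was dissected, and the part that pancreatic cells or their RNA have in these values was not tested.

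**Figure D4:**
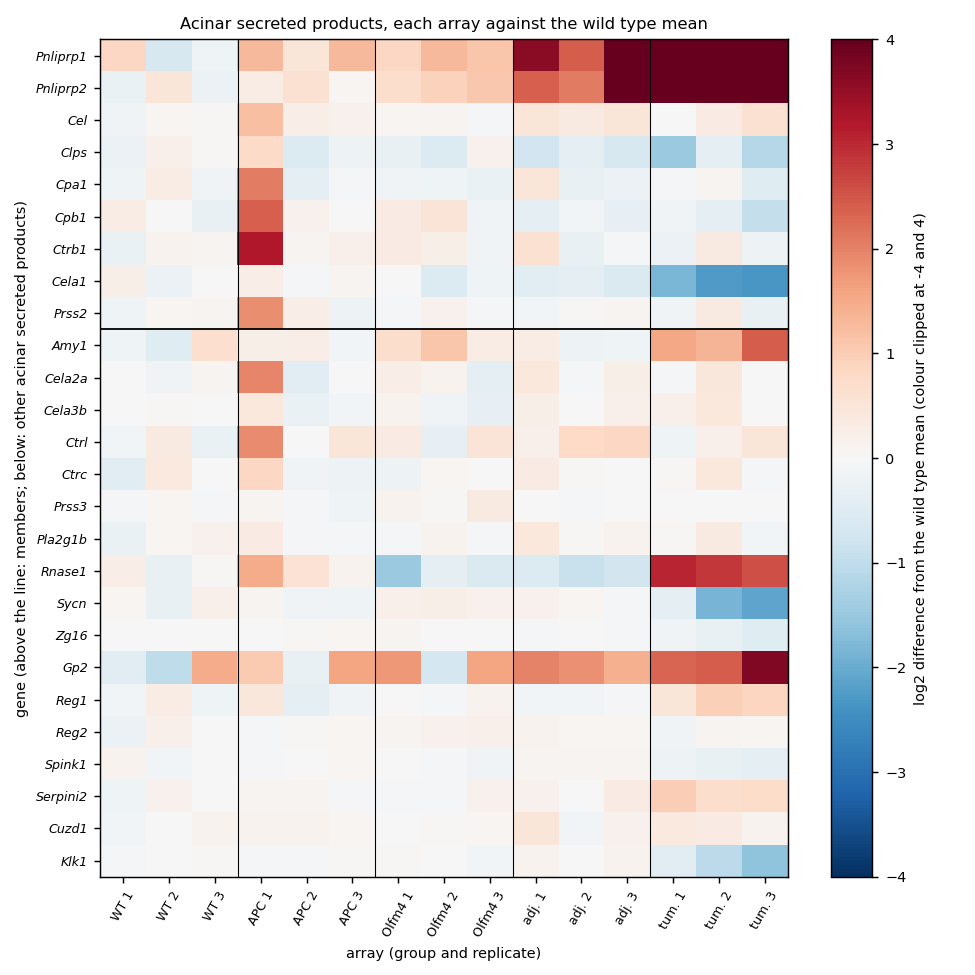
Difference of each array from the wild type mean, in log2 units, for the 9 measured members (above the line) and 17 other acinar secreted products (below it); columns are arrays, and the colour is clipped at -4 and 4. Pnliprp1 and Pnliprp2 are raised on the adjacent and tumour arrays, and Ctrb1, Cpb1, Cpa1, Prss2, Cela2a and Ctrl on APC mutant replicate 1.

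Among 17 other measured products of acinar cells, 5 were called higher and 4 lower in tumour against wild type, with a median difference of 0.14. These shares are near those of all genes, of which 29.3% were called higher and 20.1% lower. The higher ones included the ribonuclease Rnase1 (2.83, limma adjusted p = 1.67e-05), Gp2, the main membrane protein of zymogen granules, also made by M cells of the gut (2.82, adjusted p = 0.00655), and the amylase Amy1 (1.78, adjusted p = 0.000545). The lower ones were Sycn, Zg16, Spink1 and Klk1, all with wild type means above 13. They were thus bright in wild type colon itself, and the part of cells other than acinar cells in these levels was not tested. Sycn, a protein of the zymogen granule membrane, fell by 1.45 (adjusted p = 0.0026) from 14.32 to 12.86. Cela2a and Ctrl, which were high on APC mutant replicate 1, differed by 0.14 (adjusted p = 0.82) and 0.18 (adjusted p = 0.744).

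Of 7 measured transcription factors of acinar cells, 0 were called higher and 2 lower in tumour against wild type, too few to set against the 29.3% and 20.1% of all genes. Nr5a2, a nuclear receptor of pancreas, liver and intestine, fell 11.7-fold (log2 -3.55, limma adjusted p = 6.11e-06), and Pdx1 fell by 2.08 (adjusted p = 0.0195). Ptf1a differed by 0.16 (adjusted p = 0.447) and its partner Rbpjl by -0.17 (adjusted p = 0.409). The mean over the list lay between 7.04 and 7.70 on the wild type arrays and between 6.47 and 6.79 on the tumour arrays.

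Lipases and lipolytic enzymes outside the pancreatic family mostly did not share the rise. Of 15 measured, 1 was called higher and 6 lower in tumour against wild type, where 29.3% of all genes were called higher and 20.1% lower, and their median difference was -0.15. The higher one was the gastric lipase Lipf (1.40, limma adjusted p = 0.00072), which had a low tumour mean of 5.45. The lower ones included the carboxylesterase Ces1d (-2.91, adjusted p = 2.08e-06), the secreted phospholipase Pla2g10 (-2.76, adjusted p = 6.01e-07) and Mgll, which cleaves monoglycerides (-2.33, adjusted p = 0.000198). Lpl and Lipa, the lipases of the vessel wall and the lysosome, differed by 0.95 (adjusted p = 0.0954) and 0.23 (adjusted p = 0.193).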

How the data were processed

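Total RNA was extracted with Trizol and hybridised as biotin-labelled cRNA, per the labels' protocols. The authors deposited log2 values made with RMA, and Partek 6.5 is named, per the submitters' processing notes. RMA quantile normalizes the arrays together, which removes most of any shift shared by all genes. Values ran from 2.56 to 14.96, with array medians of 6.35 to 6.47, as a log2 scale gives. A genome build is not given in the sources used here, and the values carry no detection calls.

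Of 45101 probe sets 64 were controls, 34945 had 1 gene symbol, 932 several and 9160 none in the platform annotation, and the brightest probe set with 1 symbol was kept for each of 18193 genes. Symbols were checked against RefSeq (GRCm38.p6), and 0 changed. The functions lmFit and eBayes of limma 3.58.1 (R 4.3.3) estimated 5 group means from the 15 arrays, with Benjamini-Hochberg adjustment over all genes, and were first tested on simulated data. SE is that of the fitted difference, 3 arrays against 3. The number of arrays limits the precision. Pairs of arrays correlated between 0.919 and 0.995, and 0 pairs were identical.

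The members and gene lists were chosen with earlier results of these data known. All members were named, with up to 3 genes of each other list (the largest called differences in tumour against wild type without overlap), up to 2 defining genes that did not pass, and the 5 genes most like Pnliprp1; other names (the lower acinar products, Pdx1, Lipf, Krt8, Hoxd13, Anpep, Mttp and those on APC mutant replicate 1) were chosen after their values were seen. Tumour and adjacent arrays share replicate numbers and animals, since replicate 1 of both carries one animal's number and replicates 2 and 3 the other's. Deviations of the same-numbered arrays correlated at 0.281, -0.0155 and 0.182. The other pairs of tumour and adjacent arrays from one animal gave 0.126 and 0.124. All pairs from different animals were negative, between -0.259 and -0.0881. Deviations within a group of 3 arrays offset each other, so negative pairs partly follow from positive ones. These signs are thus no test of the pairing. Alternatives covered the choice of probe set, a filter on dim genes, normalization, model settings, animals as blocks, the added RNAs as a covariate and each array left out.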

Additional observations from a re-analysis of the deposited data

How the results depend on the processing

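Of the 8 members tested, the counts called moved by over 1.5 times under these alternatives. With the 3′ to 5′ difference of the added RNAs as a covariate, which nearly follows the groups, 0 members passed in tumour against wild type, APC mutant or Olfm4 mutant colon, 1 in tumour against adjacent tissue, and 0 in adjacent tissue against wild type or APC mutant colon. Of all 18193 genes, 1, 1 and 79 were then called in tumour against wild type, APC mutant and Olfm4 mutant colon. Tumour against adjacent tissue kept 2144 genes, and adjacent tissue against wild type or APC mutant colon 0. Under it Clps turned to 0.21 against wild type and 0.14 against APC mutant colon in tumour, and Cela1 to 0.18 in adjacent tissue against APC mutant colon. With only the groups compared, tumour against APC mutant colon gave 2 and adjacent tissue against wild type 2, where 7926 and 3184 of all 18193 genes were called. Adjacent tissue against wild type also gave 2 with the mean of all probe sets of a gene, the most variable probe set, a filter on dim genes (mean above 8.39, which 4 measured members pass) or an intensity trend with a robust prior, and adjacent tissue against Olfm4 mutant colon gave 1 with the most variable probe set or that filter. Over all genes the former comparison then had 4499, 6240, 3979 (of 9096) and 5082 calls, in that order. Adjacent tissue against Olfm4 mutant colon had 432 calls over all genes with the most variable probe set and 135 of 9096 with the filter. Adjacent tissue against APC mutant colon gave 1 with the animal as a random block or with arrays of one animal averaged, where 2254 and 1651 of all 18193 genes were called. Leaving out 1 array at a time gave 2 to 5 for tumour against APC mutant colon, with 2 without APC mutant replicate 1 or tumour replicate 3, 2 to 3 against Olfm4 mutant and against wild type colon, and 1 to 1 for adjacent tissue against APC mutant colon. Over all genes the calls in tumour were then 7445 to 7884 against APC mutant, 5766 to 6858 against Olfm4 mutant and 7936 to 8470 against wild type colon. Adjacent tissue against APC mutant colon had 1578 to 2826. Without both APC mutant replicate 1 and adjacent replicate 3, an alternative chosen after seeing the data, the counts were 2 for tumour against APC mutant colon, 4 (1 higher, 3 lower) against Olfm4 mutant colon, 1 for adjacent tissue against APC mutant colon and 1 for Olfm4 mutant against wild type colon. Over all genes, tumour then had 7143 calls against APC mutant and 7104 against Olfm4 mutant colon. Adjacent tissue against APC mutant colon had 490. The replicate number as a block in tumour against adjacent tissue gave 2, as without it, and changed no call of a member. Over all genes 4940 were then called. The tumour rise of Pnliprp2 over wild type kept its direction under all 16 alternatives, from 3.38 to 6.13, and passed in 15. Apart from what the construction of an alternative shows (fewer arrays, or other probe sets), the cause of these changes was not tested. The dim enzymes lie near the low end of the table, so their changes are bounded by the signal over background.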

Other observations

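Marker lists of other tissues that express digestive enzymes or lie beside the colon moved in different directions in tumour against wild type colon. In that comparison 29.3% of all genes were called higher and 20.1% lower. Of 13 gastric epithelial markers 4 were called higher, near the share of all genes, and 0 lower. The higher ones included the transcription factor Sox2 (log2 6.92, limma adjusted p = 1.44e-05), Gkn3 (2.11, adjusted p = 6.76e-06) and the proton pump subunit Atp4a (1.63, adjusted p = 0.000246). The mean over the list, to which Sox2 contributes most, lay between 6.61 and 6.78 on the tumour arrays against 5.67 to 5.69 on the wild type arrays. Of 7 islet genes 1 was called higher, Iapp (2.89, adjusted p = 0.00164), and 1 lower, Ppy (-4.77, adjusted p = 8.58e-06), which encodes pancreatic polypeptide. The insulin gene Ins2 differed by -0.12 (adjusted p = 0.555). Of 5 salivary gland genes 2 were called higher, Amy1, which also stands in the acinar list, and Bpifa2 (0.47, adjusted p = 0.00377), whose tumour mean was 3.78.

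Among markers of gut epithelium, calls were mostly lower in the colonic list and went both ways in the list of the small intestine. Of 11 colonic markers 0 were called higher and 9 lower, with a median of -2.03, including the chloride exchanger Slc26a3 (-4.13, limma adjusted p = 7.13e-07), the carbonic anhydrase Car4 (-3.48, adjusted p = 3.82e-09) and the transcription factor Cdx1 (-3.40, adjusted p = 3.66e-08). The others, Krt8 and Hoxd13, differed by -0.04 (adjusted p = 0.756) and 1.93 (adjusted p = 0.0536). Of 9 enterocyte genes of the small intestine 2 were called higher, the peptidase Anpep (1.71, adjusted p = 1.97e-05) and Mttp, which loads lipoproteins with fat (1.39, adjusted p = 0.00211), and 5 lower, among them Rbp2, which carries retinol (-5.98, adjusted p = 6.65e-05), Apoc3 (-2.40, adjusted p = 0.00064) and the bile acid carrier Fabp6 (-2.14, adjusted p = 7.95e-06). Of 6 genes of visceral fat 0 were called higher and 2 lower, Fabp4 (-2.17, adjusted p = 0.000215) and Pparg (-1.45, adjusted p = 0.0114). The part these changes have in the values of Clps and Cela1, which fell on the same arrays, was not tested.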
